A study of Homo sapiens with 13 samples.

Results

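The miR-301a knockout library CRISPRd_miR301a-#2 was set directly against the miR-454 knockout library CRISPRd_miR454-#1, with no control library in the ratio. Both came from A549, a human lung adenocarcinoma cell line, after CRISPR knockout of the precursor of miR-301a or of miR-454, and they are 2 of the 13 libraries of the study. Genes entered with 20 or more reads over both libraries and 1 CPM (counts scaled to library size) or more in either, which 14974 of 39708 gene symbols reached. The study asked how PRR11, SKA2, miR-301a and miR-454, which form a transcriptional unit on chromosome 17, act in lung cancer cells. The table that holds both knockouts has 5 more A549 libraries, which do not enter the ratio of the knockouts and give levels beside it. They are LV-miR301a, LV-miR454 and LV-3+4, labelled as expressing miR-301a, miR-454 or the pair of them from a lentivirus, their vector control LV-vector-34, and the knockout control CRISPRd_Control. The reads of the MIR454 locus, 28 in LV-miR301a, 468 in LV-miR454 and 0 in LV-3+4, match neither the name of LV-miR301a nor that of LV-3+4, so both libraries are used only in ranges, in a mean of the lentiviral libraries and in the plots by library. All cells were kept in DMEM/F12 with serum. The labels do not say what #2 and #1 mark, nor whether a knockout line is a clone or a pool. Each knockout is 1 library, so the values compare these libraries, have no replicate check and carry no p-value, and a difference between cell lines and an effect of the lost microRNA cannot be told apart.

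MicroRNAs guide Argonaute proteins to messenger RNAs, mostly through the seed near their 5′ end, and lower the stability and translation of those messages. miR-301a and miR-454 belong to the miR-130 family, whose members share a seed and so share most predicted targets. Both are cut from introns of SKA2, whose protein helps kinetochores hold on to spindle microtubules, and PRR11, a proline-rich cell cycle protein, is transcribed away from SKA2 from a shared promoter.

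The sequences show how alike the removed microRNAs are. They are from RefSeq on GRCh38.p14, 5′ to 3′, with the seed (bases 2 to 8) in capitals in the mature arms and the 3p arm in capitals in the hairpins.
hsa-miR-301a-3p: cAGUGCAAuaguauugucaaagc
hsa-miR-454-3p: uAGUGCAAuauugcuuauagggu
hsa-miR-301a-5p: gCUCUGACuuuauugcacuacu
hsa-miR-454-5p: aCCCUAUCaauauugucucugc
MIR301A hairpin: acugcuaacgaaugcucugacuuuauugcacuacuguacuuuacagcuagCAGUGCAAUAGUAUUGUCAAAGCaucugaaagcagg
MIR454 hairpin: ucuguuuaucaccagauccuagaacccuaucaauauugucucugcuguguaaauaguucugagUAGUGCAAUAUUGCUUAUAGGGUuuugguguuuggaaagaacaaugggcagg
The 3p arms carry the same seed, and they are identical over bases 2 to 10 and at 13 of 23 positions in all. The 5p arms have different seeds. The hairpins lie on the minus strand at chr17:59151136-59151221 (MIR301A, 86 bases) and chr17:59137758-59137872 (MIR454, 115 bases), inside SKA2.

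Total counts were 18854358 in CRISPRd_miR301a-#2 and 19108650 in CRISPRd_miR454-#1, and 18842315 to 19139309 in the 5 other libraries. The scaled library sizes that CPM uses were 18523419 in CRISPRd_miR301a-#2 and 18190637 in CRISPRd_miR454-#1, so 3 counts were 0.162 CPM and 0.165 CPM there. The size rule for a call asks for a log2 ratio of CPM + 0.5 of at least 1 in size, and that the exact 95% interval of the ratio of counts excludes equality. Intervals and floors cover counting error only. In CRISPRd_miR301a-#2, 414 genes (2.76%) passed it as higher and 546 (3.65%) as lower, together 960 (6.41%). The middle of the table hardly moved, with a median log2 ratio of 0.00 and quartiles of -0.20 and 0.20. At a log2 ratio of 2 or more in size there were 79 higher and 105 lower genes, and at 3 or more 18 and 23. The same rule separated 1637 of 15050 genes (10.9%) between CRISPRd_miR301a-#2 and CRISPRd_Control and 1455 of 14989 (9.71%) between CRISPRd_miR454-#1 and CRISPRd_Control, which share that control. Set against CRISPRd_Control, the vector library LV-vector-34 differed by it in 645 of 14827 genes (4.35%), again with 1 library each.

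**Figure D1:**
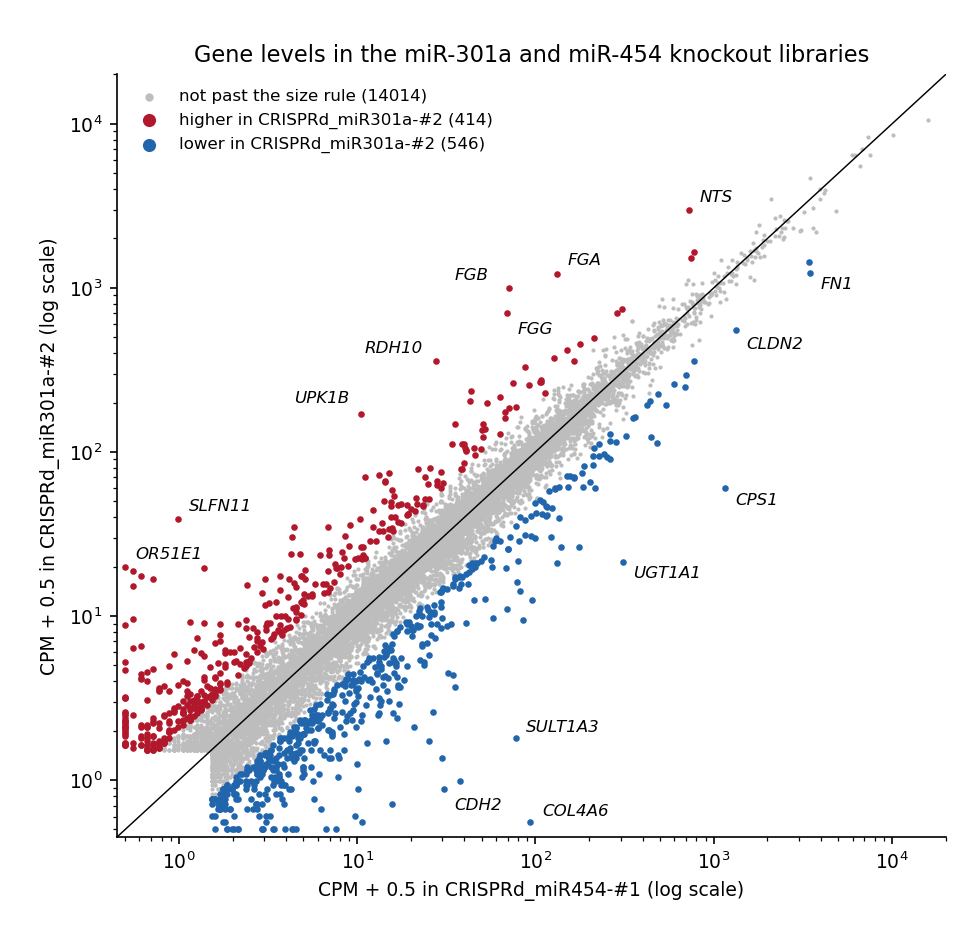
Each point is 1 of the 14974 measured genes, with its CPM + 0.5 in CRISPRd_miR301a-#2 on the vertical log axis and in CRISPRd_miR454-#1 on the horizontal log axis, and the line marks equality. The 414 red and 546 blue points passed the size rule, and most genes lie close to the line.

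At the unit itself, the knockouts differed for SKA2 and hardly for PRR11. SKA2 (chr17:59109951-59155269, minus strand) had 1164 reads (62.8 CPM) in CRISPRd_miR301a-#2 and 807 reads (44.4 CPM) in CRISPRd_miR454-#1. It had 63.4 CPM in CRISPRd_Control and 59.7 to 76.4 CPM in the lentiviral libraries, so only CRISPRd_miR454-#1 lay below the others. The level in CRISPRd_miR301a-#2 was 141.6% of that in CRISPRd_miR454-#1 (129.4 to 155.1%, log2 ratio 0.50), short of the size rule. PRR11 (chr17:59155499-59204705, plus strand) had 95.9 CPM in CRISPRd_miR301a-#2 and 90.8 CPM in CRISPRd_miR454-#1, both below the 132.5 CPM of CRISPRd_Control and the 127 to 141 CPM of the lentiviral libraries. Its ratio was 105.6% (98.7 to 113%), an interval that holds equality. In these bulk samples, fewer cells that express a gene and less RNA per cell cannot be told apart. The MIR301A and MIR454 loci had 0 reads in both knockouts and also in CRISPRd_Control, so these counts do not check the knockouts. Of 22 measured neighbours of the unit on 17q22, 0 passed the rule, against 6.41% of all measured genes, and their median log2 ratio was 0.13. The median over genes of chromosome 17 at 5 CPM or more was 0.01. Relative to the mean of the lentiviral libraries, those genes had medians of -0.22 in CRISPRd_miR301a-#2, -0.23 in CRISPRd_miR454-#1 and 0.06 in CRISPRd_Control, so the chromosome as a whole was lower in both knockouts, as PRR11 was, and its part in the level of PRR11 was not tested.

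Messages with a site for the shared seed did not stand apart between the knockouts. Sites were searched in the longest annotated 3′ UTR of 12893 genes, as TTGCACT or TGCACTA (7mers) and TTGCACTA (the 8mer, which contains both), on the transcript strand. The 426 genes with an 8mer had a median log2 ratio of 0.01, with 10 higher (2.35%) and 14 lower (3.29%). The 2167 genes with a 7mer and no 8mer had a median of 0.02, with 62 higher and 70 lower. The 10300 genes with no site had a median of 0.00, with 255 higher (2.48%) and 375 lower (3.64%). Relative to CRISPRd_Control, the 8mer genes had medians of 0.05 in CRISPRd_miR301a-#2 and 0.03 in CRISPRd_miR454-#1, and the genes without a site -0.03 in CRISPRd_miR301a-#2 and -0.03 in CRISPRd_miR454-#1, ratios that share the control library.

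Of 31 measured genes from a list of reported family targets, 1 was higher and 2 were lower, with a median log2 ratio of -0.14. These counts stand beside 2.76% higher and 3.65% lower over all measured genes. DLC1, a GTPase-activating protein and tumour suppressor, had 7.18 CPM in CRISPRd_miR301a-#2 and 25.5 CPM in CRISPRd_miR454-#1, with 30.4 CPM in CRISPRd_Control. TIMP2, a metalloproteinase inhibitor, had 128 CPM in CRISPRd_miR301a-#2, 261 CPM in CRISPRd_miR454-#1 and 272 CPM in CRISPRd_Control, a call that was lost when scaling by total counts (log2 ratio -0.98). In both genes the miR-301a knockout was the library away from CRISPRd_Control.

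Among the genes farthest from equality, several were close to silent in one knockout and well expressed in the other. On the higher side, OR51E1, an olfactory receptor expressed outside the nose, had 357 reads in CRISPRd_miR301a-#2 and 0 in CRISPRd_miR454-#1, at least 117-fold higher against 3 counts. GRIK2, a kainate receptor subunit, had 337 reads in CRISPRd_miR301a-#2 and 1 in CRISPRd_miR454-#1, a 331-fold ratio with an interval of 59 to 13110. RFX6, a transcription factor of endocrine cells, had 274 reads in CRISPRd_miR301a-#2 and 1 in CRISPRd_miR454-#1, and BMP5, a bone morphogenetic protein, 316 reads in CRISPRd_miR301a-#2 and 2 in CRISPRd_miR454-#1. RFX6 was at 0 reads in CRISPRd_Control and at most 0.105 CPM in the lentiviral libraries, so it was seen above the floor in CRISPRd_miR301a-#2 only. ABCB1, the drug efflux pump P-glycoprotein, had 16.4 CPM in CRISPRd_miR301a-#2 and 0.220 CPM in CRISPRd_miR454-#1, 74.4-fold higher (28.8 to 274.8). Its 1.12 CPM in CRISPRd_Control and 3.44 to 6.33 CPM in the lentiviral libraries lay between the knockouts.

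Not every large difference lay on the side of the miR-301a knockout. SLFN11, a Schlafen protein that sensitises cells to DNA-damaging drugs, had 38.4 CPM in CRISPRd_miR301a-#2 and 0.495 CPM in CRISPRd_miR454-#1, 77.7-fold higher (40.7 to 170.6). CRISPRd_Control had 22.2 CPM and the lentiviral libraries 16.6 to 39.8 CPM, so the miR-454 knockout was the library that lay apart. Its relative SLFN13 followed with 11.5 CPM in CRISPRd_miR301a-#2 and 2.69 CPM in CRISPRd_miR454-#1, against 13.6 CPM in CRISPRd_Control. Both are on chromosome 17, and of 4 measured Schlafen genes these 2 were higher and 0 lower, beside 2.76% and 3.65% over all measured genes. By contrast, RDH10, which oxidises retinol on the way to retinoic acid, had 355.9 CPM in CRISPRd_miR301a-#2 and 27.1 CPM in CRISPRd_miR454-#1, with 17.2 CPM in CRISPRd_Control and 20.3 to 27.4 CPM in the lentiviral libraries. UPK1B, a uroplakin of the urothelial surface, had 170.5 CPM in CRISPRd_miR301a-#2, 9.95 CPM in CRISPRd_miR454-#1 and 23.4 CPM in CRISPRd_Control, 17.1-fold higher (14.8 to 20.01). The lentiviral libraries had 40.6 to 110 CPM, so UPK1B was highest in CRISPRd_miR301a-#2 and lowest in CRISPRd_miR454-#1. The other top genes on this side were FAM155A, CHST9, MAPK4, OR51E2, RGCC and FGB, with log2 ratios of 3.42 (OR51E2) to 4.15 (FAM155A).

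On the lower side the farthest gene was COL4A6, a chain of basement membrane collagen IV, with 1 read in CRISPRd_miR301a-#2 and 1683 reads (92.5 CPM) in CRISPRd_miR454-#1. The ratio was 1714-fold lower, with a counting interval of 307 to 67730. CRISPRd_Control had 39.8 CPM and the lentiviral libraries 14.2 to 25.4 CPM, so COL4A6 was lowest in CRISPRd_miR301a-#2 and highest in CRISPRd_miR454-#1. CDH2, the mesenchymal adhesion protein N-cadherin, had 0.378 CPM in CRISPRd_miR301a-#2 and 30.3 CPM in CRISPRd_miR454-#1, 80.2-fold lower (38.6 to 200.3), against 45.8 CPM in CRISPRd_Control and 31.97 to 56.03 CPM in the lentiviral libraries. MEG3, an imprinted long noncoding RNA, had 0.216 CPM and RHOD, a small GTPase, 0.108 CPM in CRISPRd_miR301a-#2, against 15.3 CPM and 9.18 CPM in CRISPRd_miR454-#1. In CDH2, MEG3 and RHOD the miR-301a knockout lay below all 6 other libraries, and the miR-454 knockout lay within, or a little outside, the range of the other 5.

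In the remaining lower genes the miR-454 knockout was the high one. CPS1, the first enzyme of the urea cycle, had 59.4 CPM in CRISPRd_miR301a-#2 and 1154 CPM in CRISPRd_miR454-#1, 19.4-fold lower (18.3 to 20.7), against 70.9 CPM in CRISPRd_Control and 51.1 to 81.9 CPM in the lentiviral libraries. TINAGL1, a matricellular protein, had 0.486 CPM and IL20RB, a subunit of the interleukin-20 receptor, 1.24 CPM in CRISPRd_miR301a-#2, against 37.4 CPM and 24.7 CPM in CRISPRd_miR454-#1. UGT1A1, the enzyme that glucuronidates bilirubin, had 20.95 CPM in CRISPRd_miR301a-#2 and 307.6 CPM in CRISPRd_miR454-#1, with 17.8 CPM in CRISPRd_Control. Its neighbours UGT1A6, UGT1A3, UGT1A7 and UGT1A9 were also lower (log2 ratios -4.46, -2.22, -2.00 and -2.47), but UGT1A genes share exons, so their reads cannot be split with certainty. SULT1A3, HLA-H and CDC27P11 are near copies or pseudogene entries and are uncertain for the same reason, at log2 ratios of -5.43, -3.73 and -3.53. PCDH17 (-4.27) and LOC105377094 (-3.93) complete the side.

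**Figure D2:**
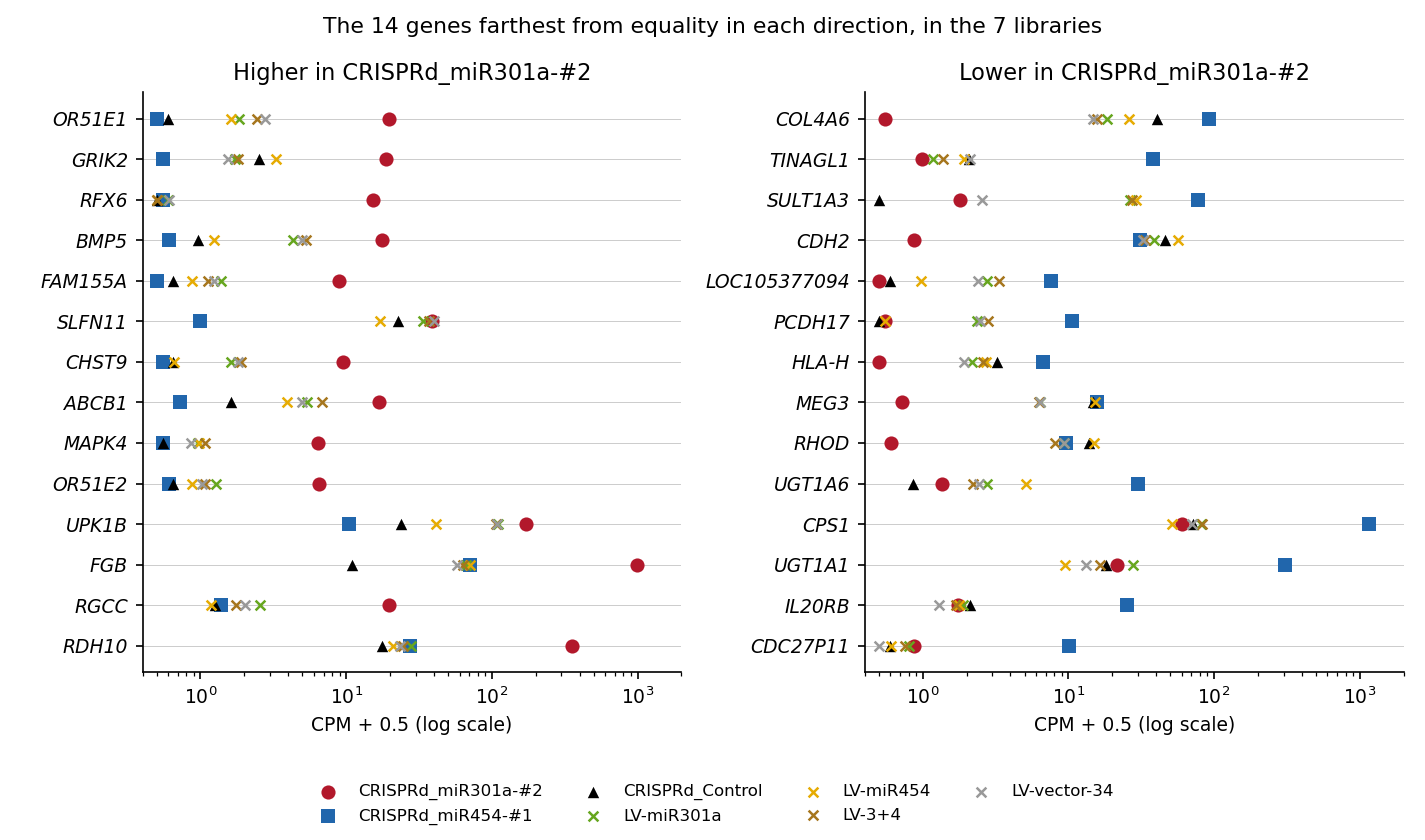
The horizontal log axis gives CPM + 0.5 of the 14 higher genes (left) and the 14 lower genes (right) whose counting bound lay farthest from equality, with 1 marker per library. SLFN11 shows the miR-454 knockout apart, RDH10 and CDH2 the miR-301a knockout apart, and CPS1 the miR-454 knockout apart on the high side.

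Fibrinogen, the clotting protein that is built of 3 chains and made by hepatocytes, was higher in CRISPRd_miR301a-#2. FGA, the alpha chain, had 1222 CPM in CRISPRd_miR301a-#2 and 131.6 CPM in CRISPRd_miR454-#1, 9.28-fold higher (8.90 to 9.69), against 15.8 CPM in CRISPRd_Control and 50.4 to 64.9 CPM in the lentiviral libraries. FGB, the beta chain, had 996 CPM in the miR-301a and 70.6 CPM in the miR-454 knockout, 14.1-fold higher (13.3 to 14.9), against 10.45 CPM in CRISPRd_Control and 57.3 to 69.8 CPM in the lentiviral libraries. FGG, the gamma chain, had 699.9 CPM in the miR-301a and 69.0 CPM in the miR-454 knockout, 10.2-fold higher (9.57 to 10.8), against 5.94 CPM in CRISPRd_Control and 33.1 to 46.7 CPM in the lentiviral libraries. All 3 chains lay above every other library in CRISPRd_miR301a-#2. They were lowest in CRISPRd_Control. In CRISPRd_miR454-#1, FGA and FGG lay above the highest lentiviral library, and FGB was about level with it (70.6 CPM against 69.8 CPM). The 3 genes are neighbours at chr4:154562956-154753118 together with LRAT, a retinol acyltransferase that was also higher, at 2.97 CPM in CRISPRd_miR301a-#2 and 0.825 CPM in CRISPRd_miR454-#1.

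Because the chains moved together, their promoters are printed, from 250 bases before to 50 after the RefSeq start (GRCh38.p14, each 5′ to 3′ on its gene's strand). Capitals mark CTGGGA, the interleukin-6 response element known from fibrinogen promoters, and GTTAAT, a motif known from promoters of liver genes, on either strand (TCCCAG and ATTAAC are the reverse complements).
FGB promoter, chr4:154562730-154563029, plus strand: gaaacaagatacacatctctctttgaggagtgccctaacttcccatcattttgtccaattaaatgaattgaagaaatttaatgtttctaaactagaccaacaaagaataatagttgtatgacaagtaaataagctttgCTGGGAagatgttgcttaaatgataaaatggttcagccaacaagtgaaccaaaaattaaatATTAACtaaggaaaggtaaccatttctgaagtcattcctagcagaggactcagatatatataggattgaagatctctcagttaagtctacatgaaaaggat
FGA promoter, chr4:154590693-154590992, minus strand: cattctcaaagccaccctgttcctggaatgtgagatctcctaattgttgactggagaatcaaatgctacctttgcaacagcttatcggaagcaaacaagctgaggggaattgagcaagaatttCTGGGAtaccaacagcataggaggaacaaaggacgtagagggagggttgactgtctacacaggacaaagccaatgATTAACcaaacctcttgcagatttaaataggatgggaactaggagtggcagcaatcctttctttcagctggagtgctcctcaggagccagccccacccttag
FGG promoter, chr4:154612607-154612906, minus strand: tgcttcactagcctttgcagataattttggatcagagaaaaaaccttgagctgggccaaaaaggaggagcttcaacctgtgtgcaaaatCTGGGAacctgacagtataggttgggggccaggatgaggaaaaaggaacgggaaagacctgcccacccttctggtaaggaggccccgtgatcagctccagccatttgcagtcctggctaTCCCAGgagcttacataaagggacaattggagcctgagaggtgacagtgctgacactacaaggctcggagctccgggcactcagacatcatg
FGB and FGA hold 1 match to each motif, and FGG holds 2 to CTGGGA and 0 to GTTAAT. Over 27305 promoters of this length, 33.4% held CTGGGA, 6.89% held GTTAAT and 1.65% held both. IL6 had 0.864 CPM in CRISPRd_miR301a-#2 and 6.65 CPM in CRISPRd_miR454-#1 (log2 ratio -2.39), against 0.457 CPM in CRISPRd_Control. The part of IL6 and of these motifs in the fibrinogen levels was not tested.

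Of the coagulation list 16 genes were measured, the chains among them, of which 4 were higher and 2 lower. Over all measured genes 2.76% were higher and 3.65% lower. The median log2 ratio of the list was 0.50, beside 0.00 over all measured genes. TFPI2, an inhibitor of tissue factor signalling and plasmin, had 701.7 CPM in CRISPRd_miR301a-#2 and 285 CPM in CRISPRd_miR454-#1, against 140 CPM in CRISPRd_Control. THBD, the endothelial anticoagulant receptor thrombomodulin, had 5.02 CPM in the miR-301a and 17.2 CPM in the miR-454 knockout, and F13B, a subunit of the clot-stabilising factor XIII, 3.62 CPM in the miR-301a and 8.36 CPM in the miR-454 knockout. Complement, the other large set of liver plasma proteins, did not follow fibrinogen. Of 18 measured members, 3 were higher and 6 lower, beside the same 2.76% and 3.65% over all measured genes, with a median of -0.02. C3, the central component, had 294 CPM in CRISPRd_miR301a-#2 and 696 CPM in CRISPRd_miR454-#1, and the classical proteases C1R (40.9 CPM in the miR-301a and 115.5 CPM in the miR-454 knockout) and C1S (60.4 CPM in the miR-301a and 151 CPM in the miR-454 knockout) and factor B (CFB, 93.6 CPM in the miR-301a and 228 CPM in the miR-454 knockout) were likewise lower in CRISPRd_miR301a-#2. CD55, which protects cells from complement, had 372.8 CPM in CRISPRd_miR301a-#2 and 126 CPM in CRISPRd_miR454-#1, and the extracellular chaperone CLU 1650 CPM in the miR-301a and 778 CPM in the miR-454 knockout. C4A and C4B are near-identical genes with log2 ratios of 2.16 and -1.55, and C4B turned to a log2 ratio of 2.14 when numbered copies of a symbol were left out, so neither has a sure direction.

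Other genes of liver and gut were mixed, with 3 higher and 4 lower of 17 measured and a median of -0.18, beside 2.76% higher and 3.65% lower over all measured genes. APOH, a plasma apolipoprotein that binds phospholipid, had 74.99 CPM in CRISPRd_miR301a-#2 and 29.1 CPM in CRISPRd_miR454-#1, and RBP4, the plasma carrier of retinol, 59.4 CPM in the miR-301a and 29.03 CPM in the miR-454 knockout. The lower members were CPS1, UGT1A6, APOC1, a lipoprotein component (28.2 CPM in the miR-301a and 62.8 CPM in the miR-454 knockout), and CYP4F11, a fatty acid hydroxylase (34.8 CPM in the miR-301a and 76.9 CPM in the miR-454 knockout). A single liver or gut direction was therefore not seen. Of 20 measured lineage factors of endoderm and airway, 2 were higher and 2 lower. The pioneer factor FOXA1 had 47.0 CPM in CRISPRd_miR301a-#2 and 22.8 CPM in CRISPRd_miR454-#1, SOX2 4.27 CPM in the miR-301a and 0.220 CPM in the miR-454 knockout, the gut factor CDX2 0.594 CPM in the miR-301a and 2.42 CPM in the miR-454 knockout, and the epithelial factor EHF 10.9 CPM in the miR-301a and 29.1 CPM in the miR-454 knockout.

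Collagens were the list with the largest lower share. Of 15 measured matrix collagens, 9 were lower and 1 was higher in CRISPRd_miR301a-#2, beside 3.65% lower and 2.76% higher over all measured genes, and the median log2 ratio was -1.12, or -0.31 with the collagens near 0 reads counted in. Collagen IV is the network former of basement membranes, encoded by 3 head-to-head gene pairs. COL4A5 had 12.04 CPM in CRISPRd_miR301a-#2 and 95.5 CPM in CRISPRd_miR454-#1, 7.93-fold lower (6.90 to 9.16), against 41.2 CPM in CRISPRd_Control, beside its partner COL4A6 described above. COL4A1 had 71.0 CPM in the miR-301a and 149.8 CPM in the miR-454 knockout and COL4A2 161 CPM in the miR-301a and 352 CPM in the miR-454 knockout, where CRISPRd_Control had 148.7 CPM of COL4A1 and 349.7 CPM of COL4A2, so in this pair only CRISPRd_miR301a-#2 lay apart. COL4A4, of the third pair, went the other way with 46.6 CPM in CRISPRd_miR301a-#2 and 22.98 CPM in CRISPRd_miR454-#1, a log2 ratio of 1.00 that no longer passed when only the knockouts were used for scaling. Its partner COL4A3 had 20.5 CPM in the miR-301a and 13.4 CPM in the miR-454 knockout. Members of 2 of the 3 pairs were thus lower and a member of the third was higher.

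COL4A5 and COL4A6 start back to back on chromosome X, and the stretch that lies in both RefSeq promoter windows (GRCh38.p14, plus strand, 121 bases, chrX:108439588-108439708) is printed since it serves both genes.
COL4A5 and COL4A6 shared stretch: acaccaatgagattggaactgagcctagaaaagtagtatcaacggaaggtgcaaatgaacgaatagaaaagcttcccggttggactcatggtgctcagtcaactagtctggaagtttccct
COL4A6 was at or under the floor in CRISPRd_miR301a-#2 while COL4A5, on the other side of this stretch, still gave 223 reads.

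Other collagens on the lower side were COL5A1, a fibril-forming chain (13.7 CPM in CRISPRd_miR301a-#2, 81.8 CPM in CRISPRd_miR454-#1, 138.5 CPM in CRISPRd_Control), and COL16A1 (log2 ratio -1.37). The remaining called members, COL6A1 (28.2 CPM in the miR-301a and 80.1 CPM in the miR-454 knockout), COL6A2 (30.6 CPM in the miR-301a and 86.4 CPM in the miR-454 knockout) and COL18A1 (193 CPM in the miR-301a and 540 CPM in the miR-454 knockout), are on chromosome 21, whose genes as a whole had a median log2 ratio of -0.57. Of 11 measured matrix glycoproteins, 4 were lower and 0 higher, beside 3.65% and 2.76% over all measured genes, with a median of -0.30, or -0.07 at 5 CPM or more and -0.18 with those near 0 reads counted in. FN1, the adhesive glycoprotein fibronectin, had 1237 CPM in CRISPRd_miR301a-#2 and 3466 CPM in CRISPRd_miR454-#1, 2.80-fold lower (2.76 to 2.84), against 1093 CPM in CRISPRd_Control and 957 to 1616 CPM in the lentiviral libraries. FN1 is on chromosome 2, where the median was -0.19. FBN2, a microfibril protein, had 59.3 CPM in the miR-301a and 129 CPM in the miR-454 knockout, and TNC and NOV were also lower. Of 9 measured metalloproteinases and inhibitors, MMP2, ADAMTS12 and TIMP2 were lower and 0 higher, beside the same 3.65% lower over all measured genes, with the call of TIMP2 lost as given above. The plasminogen system had the activator PLAT (0.918 CPM in the miR-301a and 5.99 CPM in the miR-454 knockout) and the inhibitor SERPINE2 (25.3 CPM in the miR-301a and 69.8 CPM in the miR-454 knockout) lower and the serpin SERPINI1 (16.3 CPM in the miR-301a and 2.53 CPM in the miR-454 knockout) higher in CRISPRd_miR301a-#2.

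Mesenchymal genes had 5 lower and 0 higher of 18 measured, beside 3.65% and 2.76% over all measured genes, with a median log2 ratio of -0.20. Besides CDH2 these were ZEB2 (0.432 CPM in CRISPRd_miR301a-#2 and 3.46 CPM in CRISPRd_miR454-#1), SNAI2 (0.108 CPM in the miR-301a and 1.54 CPM in the miR-454 knockout), FOXC2 (0.270 CPM in the miR-301a and 2.03 CPM in the miR-454 knockout), all transcription factors of epithelial to mesenchymal transition, and the collagen cross-linking enzyme LOX (0.540 CPM in the miR-301a and 2.80 CPM in the miR-454 knockout). All but CDH2 were below 5 CPM in both knockouts, and the more abundant VIM (908 CPM in the miR-301a and 1024 CPM in the miR-454 knockout) and ZEB1 (31.2 CPM in the miR-301a and 27.7 CPM in the miR-454 knockout) did not pass the rule. Epithelial junction genes did not move the other way, since of 19 measured 3 were lower and 0 higher. These were the claudins CLDN4 (1.62 CPM in the miR-301a and 20.3 CPM in the miR-454 knockout), CLDN3 (2.81 CPM in the miR-301a and 7.75 CPM in the miR-454 knockout) and CLDN2 (554.9 CPM in the miR-301a and 1327 CPM in the miR-454 knockout), tight junction proteins, while E-cadherin, CDH1, had 170 CPM in the miR-301a and 199 CPM in the miR-454 knockout. CLDN2 lay at 94.1 CPM in CRISPRd_Control, below both knockouts.

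Interferon and inflammatory genes were lower in CRISPRd_miR301a-#2 where they were called, with few exceptions. Of 37 measured interferon-stimulated genes, 9 were lower and 0 higher, beside 3.65% and 2.76% over all measured genes. Of the 37, 32 had a log2 ratio below 0, and the median was -0.44, or -0.28 at 5 CPM or more. IFITM1, IFITM2 and IFITM3, membrane proteins that block virus entry and neighbours at chr11:307631-327537, had 1.78 CPM, 60.3 CPM and 16.8 CPM in CRISPRd_miR301a-#2 and 9.95 CPM, 134.5 CPM and 36.9 CPM in CRISPRd_miR454-#1. BST2, which tethers budding virus, had 0.540 CPM in the miR-301a and 4.40 CPM in the miR-454 knockout, and GBP1, an interferon-induced GTPase, 5.13 CPM in the miR-301a and 13.6 CPM in the miR-454 knockout. CRISPRd_Control had 0.711, 47.1 and 18.2 CPM of the IFITM genes, 0.0508 CPM of BST2 and 3.30 CPM of GBP1, so it was CRISPRd_miR454-#1 that lay apart from both. MX1 (1.84 CPM in the miR-301a and 5.00 CPM in the miR-454 knockout) is on chromosome 21.

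Chemokines had 3 lower and 0 higher of 12 measured, beside 3.65% and 2.76% over all measured genes, with a median of -0.69, or -0.11 with chemokines near 0 reads counted in and -0.95 at 5 CPM or more. CXCL5, a neutrophil attractant, had 357.5 CPM in CRISPRd_miR301a-#2 and 773 CPM in CRISPRd_miR454-#1, CXCL2 20.6 CPM in the miR-301a and 43.7 CPM in the miR-454 knockout, and CCL20, which attracts cells with the receptor CCR6, 19.4 CPM in the miR-301a and 45.2 CPM in the miR-454 knockout. Of 16 measured interleukin genes, 4 were lower and 1 was higher. IL1A had 0 reads in CRISPRd_miR301a-#2 and 70 in CRISPRd_miR454-#1, at least 23.8-fold lower against 3 counts, IL1B 10 reads in the miR-301a and 57 in the miR-454 knockout, and IL6 16 reads in the miR-301a and 121 in the miR-454 knockout. IL32, a cytokine with no known mouse counterpart, had 15.6 CPM in the miR-301a and 78.0 CPM in the miR-454 knockout, while IL11, a fibrogenic relative of IL-6, was higher at 14.4 CPM in the miR-301a and 6.54 CPM in the miR-454 knockout. IL11 had 22.7 CPM in CRISPRd_Control, above both knockouts, and 13.3 to 46.1 CPM in the lentiviral libraries. NF-kB subunits and feedback genes had 1 higher and 3 lower of 21 measured. The higher gene was NFKBIZ, a nuclear cofactor (17.5 CPM in the miR-301a and 7.53 CPM in the miR-454 knockout), and the lower ones TNFAIP3, a feedback inhibitor (22.4 CPM in the miR-301a and 51.1 CPM in the miR-454 knockout), ICAM1, an adhesion molecule (2.05 CPM in the miR-301a and 6.38 CPM in the miR-454 knockout), and LTB, whose call was lost when numbered copies were left out. Of 18 antigen presentation genes, 2 were higher and 2 lower. The immunoproteasome subunit PSMB8 (3.19 CPM in the miR-301a and 35.0 CPM in the miR-454 knockout) was lower and HLA-DMB (69.6 CPM in the miR-301a and 10.6 CPM in the miR-454 knockout) and HLA-DMA higher, but each has 8 entries in the table and the HLA-DM calls were lost without the numbered copies.

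**Figure D3:**
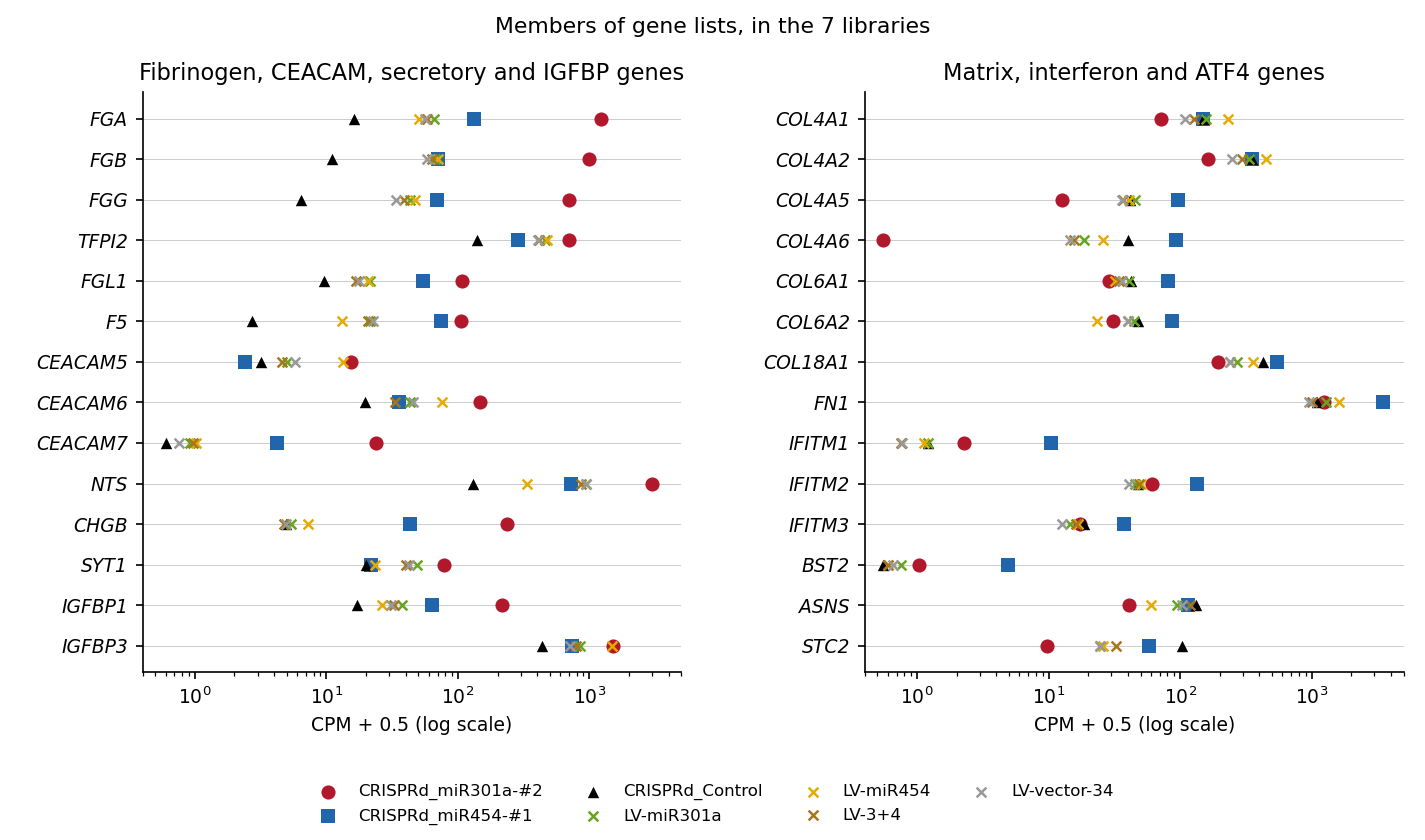
The horizontal log axis gives CPM + 0.5 of list members, with 1 marker per library. FGA, FGB and FGG are highest in CRISPRd_miR301a-#2 and lowest in CRISPRd_Control, while IFITM1, BST2 and FN1 have CRISPRd_miR454-#1 above every other library.

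Of 5 measured carcinoembryonic adhesion molecules, 3 were called higher and 0 lower, beside 2.76% and 3.65% over all measured genes. The median was 2.06, or 0.97 with the members near 0 reads counted in. The members that were not called had log2 ratios below 0, with CEACAM1 at 15.5 CPM in CRISPRd_miR301a-#2 and 16.8 CPM in CRISPRd_miR454-#1 and CEACAM19 at 14.1 CPM in the miR-301a and 16.7 CPM in the miR-454 knockout. CEACAM5, the carcinoembryonic antigen of the clinic, had 14.95 CPM in CRISPRd_miR301a-#2 and 1.92 CPM in CRISPRd_miR454-#1, against 2.69 CPM in CRISPRd_Control and 4.08 to 12.96 CPM in the lentiviral libraries. CEACAM6 had 147 CPM in the miR-301a and 35.0 CPM in the miR-454 knockout, against 19.03 CPM in CRISPRd_Control, and CEACAM7 had 23.3 CPM in the miR-301a and 3.74 CPM in the miR-454 knockout, against 0.102 CPM in CRISPRd_Control. The 3 genes are neighbours at chr19:41673307-41772208. The mucin MUC16, the source of the CA125 antigen, was higher (29.8 CPM in the miR-301a and 3.79 CPM in the miR-454 knockout) and the gel-forming mucin MUC5AC lower (112 CPM in the miR-301a and 481.5 CPM in the miR-454 knockout), as was the trefoil peptide TFF1 (1.19 CPM in the miR-301a and 10.8 CPM in the miR-454 knockout), which is on chromosome 21. Of 9 keratins, KRT4 was higher (23.5 CPM in the miR-301a and 4.29 CPM in the miR-454 knockout) and KRT20 lower (0.540 CPM in the miR-301a and 2.36 CPM in the miR-454 knockout).

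Secretory genes of neurons and endocrine cells included some of the most abundant higher genes. Of 14 measured neuronal genes 4 were higher and 1 was lower, beside 2.76% and 3.65% over all measured genes, with a median of 0.17. NTS, the precursor of the peptide neurotensin, had 2970 CPM in CRISPRd_miR301a-#2 and 724 CPM in CRISPRd_miR454-#1, 4.10-fold higher (4.03 to 4.18), against 129 CPM in CRISPRd_Control and 334 to 945 CPM in the lentiviral libraries. CHGB, a granin of dense-core vesicles, had 235 CPM in the miR-301a and 42.8 CPM in the miR-454 knockout, against 4.42 CPM in CRISPRd_Control and 4.29 to 6.77 CPM in the lentiviral libraries, so both knockouts lay above the rest. The vesicle proteins SYT1 (78.5 CPM in the miR-301a and 21.4 CPM in the miR-454 knockout) and SYP (11.7 CPM in the miR-301a and 4.34 CPM in the miR-454 knockout) were higher, and SNAP25, of the fusion machinery, was lower (39.7 CPM in the miR-301a and 81.1 CPM in the miR-454 knockout), a call lost when scaling by total counts (log2 ratio -0.98). The cystatins CST1 (260 CPM in the miR-301a and 597.5 CPM in the miR-454 knockout) and CST2 (15.1 CPM in the miR-301a and 37.9 CPM in the miR-454 knockout), secreted protease inhibitors, were lower than in CRISPRd_miR454-#1, with 13.9 CPM and 0.863 CPM in CRISPRd_Control. Of the 12 measured cystatins and cathepsins, 5 were lower and 0 higher, beside 3.65% and 2.76% over all measured genes. The others were CSTB, on chromosome 21, CTSC and CTSS. Scaling by total counts ended the calls of CSTB (log2 ratio -0.99) and CTSS (log2 ratio -0.98).

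Growth factor genes gave 3 higher and 0 lower of 14 measured in the insulin-like growth factor (IGF) axis, all 3 of them IGF-binding proteins. Over all measured genes 2.76% were higher and 3.65% lower, the shares to set beside each list of this paragraph. IGFBP1 had 215 CPM in CRISPRd_miR301a-#2 and 62.7 CPM in CRISPRd_miR454-#1, against 16.7 CPM in CRISPRd_Control. IGFBP5 had 12.5 CPM in the miR-301a and 3.57 CPM in the miR-454 knockout. IGFBP3, the main carrier of IGF in plasma, had 1521 CPM in the miR-301a and 740 CPM in the miR-454 knockout. It had 438.5 CPM in CRISPRd_Control and 714 to 1474 CPM in the lentiviral libraries, so the highest of these lay close to the miR-301a knockout. Among 17 measured genes of PDGF, VEGF, FGF and angiopoietin signals, 3 were higher and 0 lower. They were the receptors FGFR1 (454 CPM in the miR-301a and 176 CPM in the miR-454 knockout) and FGFR2 (21.8 CPM in the miR-301a and 9.24 CPM in the miR-454 knockout) and ANGPTL4, an inhibitor of lipoprotein lipase (47.1 CPM in the miR-301a and 16.6 CPM in the miR-454 knockout). For ANGPTL4 both knockouts lay below the lentiviral libraries (72.4 to 86.2 CPM), with CRISPRd_Control at 29.3 CPM. Of 13 ERBB receptors and ligands, NRG1, the ligand of ERBB3 and ERBB4, was lower (45.2 CPM in the miR-301a and 124 CPM in the miR-454 knockout). TGF-beta genes had BMP2, GDF15 and NOG higher and INHBB lower of 25 measured. Among 24 immediate early genes, the orphan nuclear receptors NR4A1 (185 CPM in the miR-301a and 70.2 CPM in the miR-454 knockout), NR4A2 (17.01 CPM in the miR-301a and 4.40 CPM in the miR-454 knockout) and NR4A3 (8.42 CPM in the miR-301a and 1.65 CPM in the miR-454 knockout) were higher, and JUN (30.3 CPM in the miR-301a and 93.4 CPM in the miR-454 knockout) and EGR1 (11.2 CPM in the miR-301a and 26.5 CPM in the miR-454 knockout) lower.

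Stress and amino acid genes differed in part. Of 31 measured genes of ATF4 and the unfolded protein response, 2 were higher and 6 lower, with a median of -0.26. Over all measured genes 2.76% were higher and 3.65% lower. The lower ones included ASNS, asparagine synthetase (40.1 CPM in CRISPRd_miR301a-#2, 114 CPM in CRISPRd_miR454-#1, 132 CPM in CRISPRd_Control), PHGDH and PSAT1 of serine synthesis (41.3 CPM in the miR-301a and 109 CPM in the miR-454 knockout, and 70.9 CPM in the miR-301a and 155 CPM in the miR-454 knockout), and the secreted stanniocalcin STC2 (9.29 CPM in the miR-301a and 57.7 CPM in the miR-454 knockout). In these 4 the levels of CRISPRd_miR301a-#2 also lay below CRISPRd_Control. The higher members were CTH, which makes cysteine from cystathionine (35.3 CPM in the miR-301a and 8.58 CPM in the miR-454 knockout), and the stress cytokine GDF15 (160 CPM in the miR-301a and 66.6 CPM in the miR-454 knockout). CBS, the enzyme before CTH in that path, was lower (14.8 CPM in the miR-301a and 33.9 CPM in the miR-454 knockout), but it lies on chromosome 21 and has a near-identical copy, CBSL. Of 30 NRF2 targets HMOX1, heme oxygenase, was higher (273 CPM in the miR-301a and 107 CPM in the miR-454 knockout) and CYP4F11, given above, lower, while 22 of the 30 had a log2 ratio below 0. For HMOX1 both knockouts lay below CRISPRd_Control (384 CPM) and the lentiviral libraries (317 to 560 CPM). Of 30 hypoxia and glycolysis genes ADM was higher (111 CPM in the miR-301a and 39.0 CPM in the miR-454 knockout) and HK1 lower (114 CPM in the miR-301a and 282 CPM in the miR-454 knockout). For ADM both knockouts lay below the lentiviral libraries (116 to 128 CPM), and CRISPRd_Control (69.8 CPM) lay between the knockouts. Cholesterol and fatty acid synthesis had 2 higher of 26, with a median of 0.27, and 20 members above 0.

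Genes of the PI3K-AKT growth pathway and of the cell cycle did not separate the knockouts by the size rule, which 6.41% of all measured genes passed. Of 30 measured genes of the PI3K-AKT-mTOR core, 0 were called, with a median of 0.00, and of 13 brakes on the pathway, 0. AKT1 had 182 CPM in CRISPRd_miR301a-#2 and 216 CPM in CRISPRd_miR454-#1, PIK3CA 18.8 CPM in the miR-301a and 15.2 CPM in the miR-454 knockout, and MTOR 76.6 CPM in the miR-301a and 72.8 CPM in the miR-454 knockout. Cell cycle lists had 0 calls as well, of 39 G1/S, 33 mitotic and 27 kinetochore genes. Their medians were slightly positive at 0.11, 0.17 and 0.20, and 30 of 33 mitotic genes had a ratio above 0. MKI67, the proliferation antigen, had 416 CPM in CRISPRd_miR301a-#2 and 336 CPM in CRISPRd_miR454-#1, against 462 CPM in CRISPRd_Control, and AURKA, a spindle kinase with the largest mitotic difference, 149.5 CPM in the miR-301a and 98.7 CPM in the miR-454 knockout, against 159.5 CPM in CRISPRd_Control. A difference below 2-fold is under the size rule, so these counts do not show equal levels.

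CRISPRd_Control lay nearer to CRISPRd_miR454-#1 in most higher genes, while the lower genes were split almost evenly between the knockouts. Distances are on the log2(CPM + 0.5) scale. Of the 414 higher genes, CRISPRd_Control lay nearer to CRISPRd_miR454-#1 in 305 (73.7%), where over all measured genes it lay nearer to that library in 52.9%. Of the 546 lower genes, it lay nearer to CRISPRd_miR301a-#2 in 289 (52.9%), where over all measured genes it did so in 47.1%. CRISPRd_Control was between the knockouts in 191 higher (46.1%) and 274 lower genes (50.2%), beside 23.2% over all measured genes. It was below both in 186 (44.9%) and 152 (27.8%), beside 38.4%, and above both in 37 (8.94%) and 120 (22%), beside 38.4%. Called genes have a wider gap between the knockouts, which leaves more room for a level between them. Since both distances use the same control library, these shares are a description of the levels.

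Calls were not spread evenly over the chromosomes. Over 11497 genes with a position and 5 CPM or more in either library, 1.86% were higher and 2.65% lower. The 109 such genes of chromosome 21 had a median log2 ratio of -0.57, with 97 (89%) below 0 and 15 (13.8%) called lower against 1 higher. Relative to the mean of the lentiviral libraries, their median was 0.06 in CRISPRd_miR301a-#2, 0.57 in CRISPRd_miR454-#1 and 0.07 in CRISPRd_Control, so the shift was in CRISPRd_miR454-#1. The part of this shift in the calls was not tested. The 787 genes of chromosome 2 had a median of -0.19, with 585 (74.3%) below 0, and here the medians relative to the lentiviral mean were -0.17, 0.00 and -0.04 in the same libraries, so the shift was in CRISPRd_miR301a-#2. Each lentiviral library lay at -0.01 to 0.03 from that mean on chromosome 21 and at -0.01 to 0.02 on chromosome 2. No other chromosome had a median beyond 0.06 in size. On chromosome 19, a stretch of 50 genes from UBA2 to C19orf33 had a median of 0.36. Relative to the lentiviral mean, its medians were 0.13 in CRISPRd_miR301a-#2, -0.30 in CRISPRd_miR454-#1 and 0.26 in CRISPRd_Control. The overlapping stretch from ZNF254 to PRODH2 had a median log2 ratio of 0.29, with 0.01, -0.28 and 0.22 in the same libraries. Without the genes of chromosomes 2 and 21, an alternative added after seeing the data, 391 genes were higher and 462 lower.

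Marker genes place both libraries with A549. Of 15 measured A549 markers, FGB was higher and CPS1 lower, and the others, such as KRT8 (6986 CPM in the miR-301a and 6800 CPM in the miR-454 knockout), AKR1C1 (3795 CPM in the miR-301a and 4127 CPM in the miR-454 knockout) and NQO1 (1833 CPM in the miR-301a and 1922 CPM in the miR-454 knockout), passed in neither direction. NKX2-1 was at 0.216 CPM in the miR-301a and 0.220 CPM in the miR-454 knockout, and the surfactant gene SFTPC had 0 CPM in the miR-301a and 0.110 CPM in the miR-454 knockout, so these markers of lung epithelium were at or near the floor. Of the fibroblast markers 3 of 12 were measured, and their summed level was 35.0 CPM in CRISPRd_miR301a-#2 and 110 CPM in CRISPRd_miR454-#1, against 167 CPM in CRISPRd_Control and 82.0 to 310.7 CPM in the lentiviral libraries, and all 3 had a log2 ratio below 0, with a median of -0.59. COL5A1 was called lower, and COL1A2 had 0.0540 CPM in the miR-301a and 0.0550 CPM in the miR-454 knockout, under the floor. The part of such cells in the collagen levels was not tested. Of the immune markers 5 of 14 were measured, with PTPRC, the leukocyte antigen CD45, higher (4.05 CPM in the miR-301a and 0.165 CPM in the miR-454 knockout) and CD3D, CD3E and MS4A1 at 0 reads in both knockouts. The other 4 had log2 ratios below 0, and the immune markers summed to 135 CPM in CRISPRd_miR301a-#2 and 168 CPM in CRISPRd_miR454-#1, with a median of -0.29. Of 9 measured HEK293 markers, CRMP1, MAP2 and HOXB9 were lower, HOXB9 not so when scaling by total counts (log2 ratio -0.97). The other 6 had log2 ratios above 0, the median was 0.28, and the sum was 359.7 CPM in CRISPRd_miR301a-#2 and 340.4 CPM in CRISPRd_miR454-#1.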

How the data were processed

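RNA sequencing measured gene expression in A549 cells, 13 libraries with 1 per group, of which the table used here holds 7. The authors deposited un-normalised expected counts per gene, which RSEM estimates and which can be fractional. The submitters' processing notes name RSEM 1.3.3, Bowtie2 2.3.5.1 and GRCh38.p13. The annotation release and strand setting are not given there, so overlapping and antisense genes may share reads. Counts were rounded, 29 entries with a date in place of a gene name (0.172% of counts) were left out, and 4840 numbered copies of a symbol (2.02% of counts) were summed, to 39708 symbols. Total counts per library were 18842315 to 19139309. The library sizes scaled as given below, 18190637 to 19704534, make 3 counts 0.152 to 0.165 CPM.

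Library sizes were scaled over the 7 libraries with edgeR 4.0.16 (TMM, the trimmed mean of M values) in R 4.3.3. Log2 ratios are of CPM plus 0.5, which makes changes of low genes look smaller. Folds are ratios of CPM with exact (Clopper-Pearson) 95% intervals, and a library at 0 counts was set to 3 counts for a fold. Reads were counted without molecular identifiers, so they do not stand for independent molecules. With 1 library per group no test was made. The call rule was run on simulated counts that hold counting error only. That run cannot show how the rule behaves under variation between cultures or cell lines. The alternatives were DESeq2 1.42.0 size factors, total counts, TMM over the knockouts alone, other filters and pseudocounts, and numbered copies left out. GENCODE release 29 (GRCh38) gave 3′ UTRs and the positions of 13818 of 14974 measured genes, and RefSeq GRCh38.p14 the sequences. The Python version was 3.11.15 (scipy 1.17.1, pandas 2.3.3, numpy 2.4.6).

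The comparison, its members, the 57 gene lists (1107 of 1126 symbols found) and the alternatives were chosen with earlier results of these data known. Named genes were the unit, the 14 higher and 14 lower genes at 5 CPM or more whose counting bound lay farthest from equality, and up to 4 called members per list and direction with the largest log2 ratio, and some are not reported here. Further genes (family partners, neighbours and members that were not called) were named after their values were seen. Mitochondrial messages of the list were not analysed here.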

Additional observations from a re-analysis of the deposited data

How the results depend on the processing

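Across the 8 other settings listed above, 213 to 535 genes were called higher and 308 to 671 lower. A minimum of 5 CPM in either library gave 225 higher and 326 lower, and a pseudocount of 2 CPM gave 213 and 308. Both settings call fewer low genes by construction. The other alternatives, and leaving out chromosomes 2 and 21, which was chosen after seeing the data, kept both counts within 1.5 times. Of the 960 called genes, 521 were shared with the calls at a pseudocount of 2 CPM and 551 with those at 5 CPM, and 921 or more with the calls under each of the other 6 settings over all genes. C4B turned from a lower to a higher log2 ratio, 2.14, when numbered copies were left out, since its reads lie in several entries. The log2 ratio ran from 0.48 to 0.54 for SKA2 and from 0.07 to 0.12 for PRR11. Scaling by total counts moved the median of all genes to 0.05 and left 46.1% of calls on the higher side, and TIMP2, SNAP25, CSTB, CTSS and HOXB9 no longer passed. The 192 chromosome medians and 40 seed site medians recomputed moved by less than 0.1 on the log2 scale, and 41 list medians moved by more while 414 did not. No paired analysis was possible because each group is 1 library. The depth limits genes near 1 CPM most, where an interval spans several-fold.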

Other observations

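Several housekeeping and signalling lists that the text above does not describe held few or no calls, beside 6.41% called over all measured genes. Of 30 ribosomal protein genes 0 were called, with a median log2 ratio of -0.06, and of 13 genes of microRNA processing 0, with a median of 0.04. Contractile genes of actin and myosin (15 measured, median -0.27), CDK inhibitors and D cyclins (12, median 0.21) and telomerase and shelterin (12, median -0.03) also had 0 calls. The SKA2 partners SKA1 and SKA3 had 16.03 CPM and 20.8 CPM in CRISPRd_miR301a-#2 and 16.05 CPM and 19.6 CPM in CRISPRd_miR454-#1, where the value of SKA1 is summed over its numbered entries in the deposited table. The median log2 ratio of these partners was 0.04, and -0.95 with numbered copies left out, so their closeness rests on the summing.

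The lists with 1 or 2 calls named the following genes, where over all measured genes 2.76% were higher and 3.65% lower. Direct p53 targets had GDF15 higher of 31, FOXO output genes PCK1, the gluconeogenic carboxykinase, higher of 18 (5.51 CPM in CRISPRd_miR301a-#2 and 1.54 CPM in CRISPRd_miR454-#1), and the BCL2 family BCL2A1 lower of 17 (1.84 CPM in CRISPRd_miR301a-#2 and 4.62 CPM in CRISPRd_miR454-#1). YAP and TEAD targets had IGFBP3 higher and DLC1 lower of 22. Epidermal differentiation genes had KLK10, a kallikrein protease, lower of 5, and placental genes PSG4 higher of 2. Of 11 measured replication-dependent histones the linker histone HIST1H1C was higher, at 15.3 CPM in CRISPRd_miR301a-#2 and 5.33 CPM in CRISPRd_miR454-#1.

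Runs of at least 3 measured neighbours called in the same direction were seen elsewhere too. On chromosome 11, DSCAML1, FXYD2 and FXYD6 were higher, with FXYD2, a subunit that modulates the sodium pump, at 264 CPM in CRISPRd_miR301a-#2 and 74.8 CPM in CRISPRd_miR454-#1, against 18.9 CPM in CRISPRd_Control. On chromosome 2, CCL20, DAW1 and PID1 were lower, and on chromosome 21 ABCG1, TFF1, TMPRSS3 and RSPH1 and also PCBP3, COL6A1 and COL6A2. On chromosome 19, CD22, DMKN and SBSN were lower.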
